A study of Mus musculus with 14 samples.

Results

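A set of 9 genes that encode proteins of the lipid droplet surface, or proteins that build the droplet, were followed in bone marrow adipose tissue of mice. They are the perilipins Plin1, Plin2, Plin3, Plin4 and Plin5, the CIDE proteins Cidea and Cidec, the fat storage-inducing protein Fitm2 and seipin, encoded by Bscl2. Members were taken by symbol, which gave 9 of the 23441 genes of the count matrix, and all 9 were among the 17494 genes that passed the filter on low counts. RNA came from marrow plugs flushed from the distal tibia of male mice at 24 weeks of age on a C57BL6/SJL background, with plugs of 2 mice pooled per library. BMAd-Pnpla2+/+ mice gave 4 libraries fed ad libitum (AL) and 4 under caloric restriction (CR), a 30% restriction for 6 weeks. BMAd-Pnpla2-/- mice gave 3 libraries AL and 3 CR, and in these mice loxP-flanked exons 2 to 7 of Pnpla2, which encodes the triglyceride lipase ATGL, are removed in bone marrow adipocytes. Controls and knockouts alike carry FLPo recombinase under Osterix and a Cre in the 3' untranslated region of Adipoq that FLPo switches on, so that Cre is active where both genes have been used. The Cre cassette lowers adiponectin in all these mice, recombination does not reach every marrow adipocyte, and a small part of the marrow stromal cells recombines as well.

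Marrow adipocytes store triglyceride in 1 large droplet covered by perilipins. Plin1 and Plin4 are perilipins of adipocytes, and Plin1 holds lipase action in check by binding the ATGL co-activator. Plin2 and Plin3 coat droplets in most cell types, Plin5 does so mainly in tissues that burn fat, Cidec and Cidea fuse small droplets into larger ones, and Fitm2 and seipin work in the endoplasmic reticulum, where droplets form.

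The 14 libraries held between 25282327 and 27475056 read pairs, of which 18658806 to 21339006 were counted on 1 of the matrix genes. The 3 BMAd-Pnpla2-/- CR libraries stand apart in their making. They placed 50.1 to 50.5% of gene reads on the first strand, against 4.3 to 4.62% in the 11 other libraries, so they were not strand-specific, and this difference cannot be told apart from that group. For this reason counts without regard to strand were used for all 14 libraries. Within groups, 3 libraries stand apart in adipocyte RNA. The mean log2 counts per 1000000 counted reads (CPM) of 11 adipocyte marker genes was 5.09 in BMAd-Pnpla2+/+ AL replicate 1 against 3.97 to 4.19 in the other 3, and 5.74 in BMAd-Pnpla2+/+ CR replicate 4 against 6.53 to 6.99. In BMAd-Pnpla2-/- AL replicate 2 it was 4.11, against 3.11 and 2.95 in the other replicates, and Plin1, Plin4 and Cidec were also highest there. The plugs are adipocyte-containing marrow rather than isolated fat. All 11 adipocyte markers were counted in each group and together reached 314 to 4021 CPM per library, whereas 10 neutrophil genes reached 15509 to 36946 CPM. Fewer adipocytes and less RNA per adipocyte cannot be told apart in such tissue.

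Short windows of the promoters are shown for Plin1 and Cidec, whose levels ran together over the libraries (Pearson r of log2 CPM 0.99). They are also shown for Plin2, whose level ran less closely with theirs (0.42 and 0.41). RefSeq promoters (GRCm38.p6, the build mm10, 250 bases before to 50 after a start) were found for 8 of the 9 genes, in 12 entries, and not for Cidea. The letters TTNNGCAA, to which CCAAT/enhancer binding proteins bind, were searched on both strands and are present in 10.8% of all 32851 promoters. They occurred in Plin1 and Cidec and in no other member. Plin4 and Fitm2, whose levels also ran with that of Plin1 (0.98 and 0.95), had no match. In the lines below the match is in capitals, read on the strand of the gene, where it stands reversed, and all 3 genes shown lie on the minus strand. The Plin1 windows are chr7:79732945-79732974, before the gene, and chr7:79732816-79732845, in an exon of the gene in GENCODE M21. The Cidec window is chr6:113434944-113434973, before the RefSeq start and, in GENCODE M21, inside the gene but in no exon.
Plin1 at -187: ccacctctttaTTGCCTAAacatcccccat
Plin1 at -58: tctgagaggcaTTGCCCAAgattccctgga
Cidec at -198: ggagggctctaTTGCTCAAgggcccatggg
Plin2 differs in this window. It held the E-box CACGTG, present in 7.15% of promoters, at chr4:86670046-86670075 across its start, and the nuclear receptor half-site AGGTCA, present in 16.3% of promoters, on the opposite strand at chr4:86670260-86670289.
Plin2 at -4: cagctgggctatCACGTGgctcggaggctt
Plin2 at -218: tttcaggaccccTGACCTaagtcagacagc
The half-site was also found in Plin5 and Bscl2, and 2 copies of AGGNCA spaced by 1 base, which 0.381% of promoters hold, in no member. These matches describe the sequence only.

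Pnpla2, the deleted gene, was counted in every library. The count takes in all 11 merged exons of the gene, and exons 2 to 7 were not counted apart. RNA of the deleted allele, which the study saw in tail vertebrae, can add reads from the exons that remain. The level of Pnpla2 was 305, 176, 202 and 192 CPM in AL libraries of BMAd-Pnpla2+/+ mice and 816, 1006, 1029 and 509 CPM in their CR libraries. It was 137, 172 and 133 CPM in AL libraries of BMAd-Pnpla2-/- mice and 179.6, 222 and 271 CPM in their CR libraries, below every BMAd-Pnpla2+/+ library of the same diet. Under CR the knockout libraries were lower by a log2 fold change of -1.91 ± 0.26 (SE, adjusted p = 0.0387), in edgeR's quasi-likelihood test with Benjamini-Hochberg adjustment over all 17494 genes, which is used throughout. A gene is called where its adjusted p is under 0.05. On AL the difference of -0.57 ± 0.25 was not called (adjusted p = 1).

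Set against each other per length, as CPM per kilobase of merged exons of GENCODE M21, the members changed order with diet. In BMAd-Pnpla2+/+ AL libraries Plin2 stood first at 32 ± 4.99 (SD, n = 4), and Cidec at 27.5 ± 19, Plin1 at 22.3 ± 12.7, Plin4 at 21.5 ± 13.1 and Plin3 at 19.8 ± 1.6 followed with ranges that overlapped from each to the next. In BMAd-Pnpla2+/+ CR libraries Plin1 at 96.5 ± 42.4 and Cidec at 91.7 ± 31.4 led, followed by Plin4 at 62.6 ± 27.5 and Plin2 at 37.6 ± 4.8, and again the ranges of neighbours overlapped. The lowest level per length was that of Cidea on AL, at 0.156 ± 0.221, and under CR that of Plin5, at 1.3 ± 0.135, next to Cidea at 1.79 ± 0.726. In BMAd-Pnpla2-/- AL libraries Plin2 at 34.5 ± 6.24, Plin3 at 17.1 ± 0.526 and Bscl2 at 15.5 ± 0.827 (SD, n = 3) were the first 3 with no overlap between Plin2 and Plin3 or between Plin3 and Bscl2, and Plin1 was at 9 ± 5.43.

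**Figure D1:**
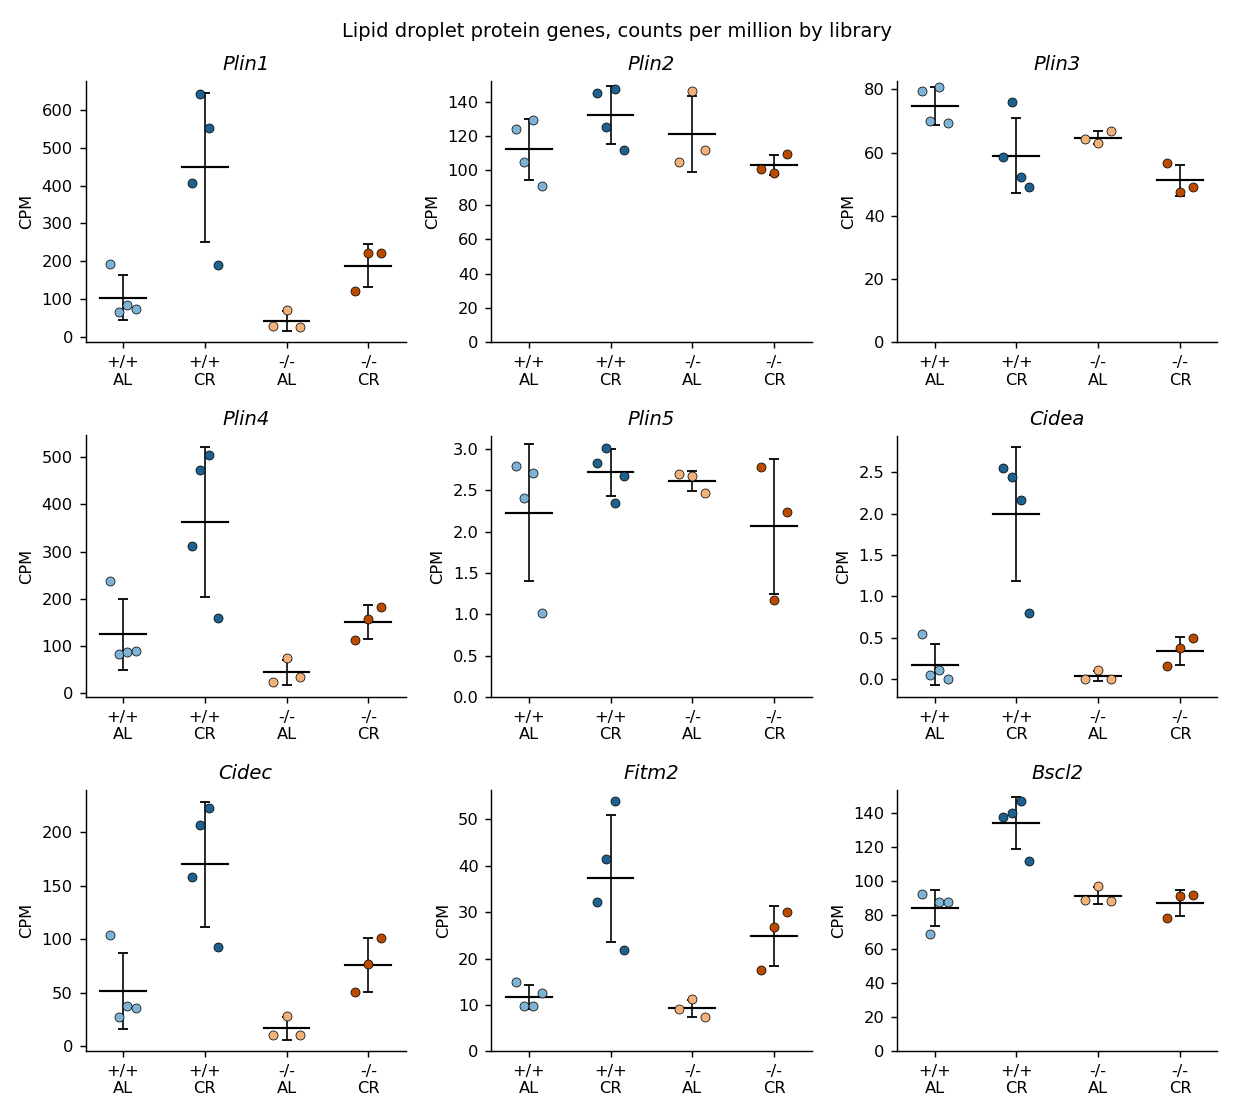
CPM of the 9 lipid droplet genes, each panel with its own vertical axis that includes 0. Points are libraries in replicate order within a group, long bars are group means and whiskers the SD (n = 4, 4, 3 and 3). Plin1, Plin4 and Cidec run together, with BMAd-Pnpla2+/+ AL replicate 1 high and CR replicate 4 low, and Plin2 stays between 90.9 and 147 CPM.

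The first question was what CR did in marrow fat that keeps its lipase. In BMAd-Pnpla2+/+ mice 6 of the 9 genes rose with CR and none fell, while 15% of all genes tested were called higher. The 6 are Plin1, Plin4, Cidea, Cidec, Fitm2 and Bscl2, of which Cidea passed the filter on low counts through the CR libraries. Of the 6, 5 rose by a log2 fold change over 1, the study's second criterion, which 7.26% of all genes passed upward. The median log2 fold change of the 9 was 1.54, and that of all genes was 0.00. Plin2, Plin3 and Plin5 were not called. In BMAd-Pnpla2-/- mice 4 of the 9 rose, Plin1, Plin4, Cidec and Fitm2, all by over 1 on the log2 scale, and the median was 1.42, while 6.01% of all genes were called higher and 2.59% passed both criteria upward. The adipocyte markers moved in the same comparisons. Their summed level was 634 to 1466 CPM on AL and 1723 to 4021 CPM under CR in BMAd-Pnpla2+/+ libraries, with 10 of 11 called higher. In BMAd-Pnpla2-/- libraries it was 314 to 659 CPM and 1129 to 1752 CPM, with 9 of 11 called higher.

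Plin1 (mm10 chr7:79720218-79732903, minus strand, 9 merged exons in GENCODE M21), the gatekeeper of adipocyte lipolysis, was measured at 192, 65.2, 84.4 and 74 CPM in BMAd-Pnpla2+/+ AL and at 408, 642, 553 and 190.4 CPM in CR libraries. The groups overlapped only through AL replicate 1 and CR replicate 4, the libraries noted above for adipocyte markers. Its log2 fold change was 2.11 ± 0.46 (SE, adjusted p = 0.0079). In BMAd-Pnpla2-/- mice it went from 28, 71 and 26.5 CPM to 122, 222 and 221 CPM, with no overlap, a log2 fold change of 2.17 ± 0.53 (adjusted p = 0.023). The difference between these changes is given with the interaction.

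Plin4, a perilipin of small adipocyte droplets, lies next to Plin5 on chromosome 17, with 1797 bases and no other gene between them (Plin4 at chr17:56100591-56109803 and Plin5 at chr17:56111601-56117596, both on the minus strand with 9 merged exons). It was at 238, 83.4, 87.1 and 89.4 CPM in BMAd-Pnpla2+/+ AL and 312, 472, 504 and 159 CPM in CR libraries, and rose by a log2 fold change of 1.54 ± 0.45 (adjusted p = 0.0264). In BMAd-Pnpla2-/- libraries it was at 23.4, 74.4 and 33.8 CPM on AL and 112, 158 and 182 CPM under CR, a log2 fold change of 1.78 ± 0.53 (adjusted p = 0.0459). Its neighbour Plin5 did not go with it, and this pair of adjacent genes had a Pearson r of 0.08 over the 14 libraries in log2 CPM. Plin4 is the least secure of the called perilipins. Leaving out BMAd-Pnpla2+/+ AL replicate 2, 3 or 4, or CR replicate 2 or 3, ended its call in BMAd-Pnpla2+/+ mice, with adjusted p-values up to 0.0759.

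Plin2 (chr4:86648386-86670060, minus strand, 13 merged exons), the perilipin of most non-adipocyte droplets, stayed between 90.9 and 147 CPM in all 14 libraries. It was at 124, 105, 129 and 90.9 CPM in BMAd-Pnpla2+/+ AL and 145, 125, 147 and 112 CPM in CR libraries, and the difference of 0.24 ± 0.13 on the log2 scale was not called (adjusted p = 0.197). In BMAd-Pnpla2-/- libraries it was at 105, 146 and 112 CPM on AL and 101, 98.6 and 109.8 CPM under CR, a difference of -0.23 ± 0.15 (adjusted p = 0.342). Markers of macrophages, which also use Plin2, summed to 1656 to 2906 CPM per library over 9 genes, of which 2 were called higher with CR in control and 0 in knockout mice. Their part in the Plin2 level was not tested.

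Plin3 (chr17:56277476-56292873, minus strand, 9 merged exons), a perilipin that moves between the cytosol and new droplets, had estimates below 0 in both genotypes. It was at 79.5, 70.0, 80.7 and 69.3 CPM in BMAd-Pnpla2+/+ AL and at 58.8, 75.9, 52.3 and 49.2 CPM in CR libraries, where CR replicate 2 overlapped the AL range. The log2 fold change of -0.34 ± 0.12 fell just outside the threshold (adjusted p = 0.0514), and the gene was called lower by DESeq2. Without CR replicate 2 it was -0.49 with an adjusted p of 0.00961. BMAd-Pnpla2-/- libraries had 64.3, 63 and 66.9 CPM on AL and 56.8, 47.6 and 49.3 CPM under CR, with no overlap and an uncalled difference of -0.34 ± 0.14 (adjusted p = 0.13). Neutrophil markers, the largest marker signal in the plugs, summed to 27893 to 36946 CPM on AL and 15509 to 26275 CPM under CR in BMAd-Pnpla2+/+ libraries, with 5 of 10 called lower, and to 30635 to 31647 and 19511 to 31027 CPM in BMAd-Pnpla2-/- libraries, with 0 called. Their part in the Plin3 level was not tested.

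Plin5, the perilipin of fat-burning tissues such as heart and muscle, was barely present, with 21 to 65 reads per library. It was at 2.79, 2.41, 2.71 and 1.01 CPM in BMAd-Pnpla2+/+ AL and 2.83, 3.01, 2.35 and 2.67 CPM in CR libraries, and the groups overlapped (log2 fold change 0.29 ± 0.30, adjusted p = 0.498). In BMAd-Pnpla2-/- libraries it was at 2.7, 2.67 and 2.47 CPM on AL and 2.78, 1.17 and 2.24 CPM under CR (log2 fold change -0.34 ± 0.35, adjusted p = 0.563). Skeletal muscle markers summed to 12.9 to 152 CPM in BMAd-Pnpla2-/- CR libraries and to at most 36.7 CPM in any other library, and the part of muscle RNA in the Plin5 level was not tested.

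Cidea, the CIDE protein best known from brown fat, lies on chromosome 18 and had the largest log2 fold change of the 9 genes on the lowest counts. It passed the filter on low counts through the BMAd-Pnpla2+/+ CR libraries, where it was highest. When only the groups compared were fitted and that group was not among them, 8 members were tested, without Cidea. Each comparison of Cidea with that group therefore draws on the values that admitted it. BMAd-Pnpla2+/+ AL libraries had 11, 1, 2 and 0 reads, or 0.539, 0.0535, 0.104 and 0 CPM, and CR libraries had 53, 53, 48 and 15 reads, or 2.55, 2.45, 2.17 and 0.802 CPM. Every CR library was above every AL library, and the log2 fold change was 3.46 ± 0.71 (adjusted p = 0.00577). Summed over libraries this is 169 against 14 reads, a ratio of 11.5 with an exact 95% interval of 6.65 to 21.4 that covers counting error only. BMAd-Pnpla2-/- libraries had 0, 2 and 0 reads on AL and 3, 7 and 10 under CR, or 20 against 2 in all, a ratio of 9.64 (2.34 to 85.1), and the log2 fold change of 3.06 ± 1.26 was not called (adjusted p = 0.126). A count of 0 allows up to 3 reads, or 0.144 to 0.165 CPM in the 3 libraries concerned. Markers of brown or beige adipocytes did not all move alike. In BMAd-Pnpla2+/+ mice Kcnk3 had 45 to 145 reads per library on AL and 117 to 419 under CR. Ppargc1a had 8 to 43 and 29 to 84. Dio2 had 157 to 181 and 112 to 180, Elovl3 1 to 11 and 0 to 9. Cox7a1 had 4 to 21 and 11 to 21, and Otop1 0 to 2 and 0 to 4. In BMAd-Pnpla2+/+ libraries the 7 markers summed to 12.1 to 18.1 CPM on AL and 18.8 to 30.4 CPM under CR, with no overlap, and 2 of the 4 that were tested were called higher (median of the 4 on the log2 scale 0.71). In BMAd-Pnpla2-/- libraries they summed to 13.3 to 15.7 and 17.3 to 21.4 CPM, with 0 called. Ucp1, the defining one, had 0 to 5 reads per library. Their part in the Cidea level was not tested.

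Cidec (chr6:113424634-113435760, minus strand, 7 merged exons), which enlarges the single droplet of white adipocytes, followed Plin1. It was at 104, 27.4, 37.8 and 35.4 CPM in BMAd-Pnpla2+/+ AL and 158, 207, 223 and 93.1 CPM in CR libraries, again with overlap only between AL replicate 1 and CR replicate 4. It rose by a log2 fold change of 1.74 ± 0.45 (adjusted p = 0.0172). In BMAd-Pnpla2-/- libraries it rose from 10.4, 28.4 and 10.5 CPM to 50.6, 76.4 and 101 CPM, a log2 fold change of 2.21 ± 0.54 (adjusted p = 0.0234). Within BMAd-Pnpla2+/+ mice the call was lost without AL replicate 3 (adjusted p = 0.0517).

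Fitm2 (chr2:163466379-163472629, minus strand, 2 merged exons), which helps lipid to leave the endoplasmic reticulum toward the cytosol, had the smallest standard error of the 5 genes that rose by over 1 on the log2 scale. It was at 15, 9.68, 9.76 and 12.5 CPM in BMAd-Pnpla2+/+ AL and 32.1, 41.4, 54 and 21.8 CPM in CR libraries, with no overlap, a log2 fold change of 1.67 ± 0.26 (adjusted p = 0.00211). BMAd-Pnpla2-/- libraries had 9.15, 11.2 and 7.4 CPM on AL and 17.6, 26.9 and 30.0 CPM under CR, a log2 fold change of 1.42 ± 0.31 (adjusted p = 0.0148). Its exons share 227 bases, 5.72% of their length, with 2310001K24Rik on the opposite strand, where counts without strand cannot tell the genes apart. In BMAd-Pnpla2+/+ AL replicate 1 it had 306 reads without regard to strand and 364 as reverse-strand counts. The same counts were 895 and 1065 in BMAd-Pnpla2+/+ CR replicate 2, so part of its reads is missing from the levels given.

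Bscl2 (chr19:8837467-8848683, plus strand, 9 merged exons) encodes seipin, which shapes the site where a droplet grows. It was at 92.8, 69.1, 87.9 and 87.8 CPM in BMAd-Pnpla2+/+ AL and 138, 140.2, 147 and 112 CPM in CR libraries, with no overlap. The rise was small, a log2 fold change of 0.67 ± 0.11, and well within the threshold (adjusted p = 0.0021). BMAd-Pnpla2-/- libraries lay at 89.2, 97.2 and 88.4 CPM on AL and 78.7, 91.4 and 91.9 CPM under CR, a difference of -0.07 ± 0.12 (adjusted p = 0.755). Bscl2 shares 398 exon bases with Gng3 on the opposite strand and 239 with AC129217.1 on its own, which makes its count less certain. In BMAd-Pnpla2+/+ AL replicate 1 it had 1895 reads without regard to strand and 1923 as reverse-strand counts. In the 11 strand-specific libraries 0.175 to 0.614% of its reads lay on the first strand.

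Counts of members without overlap ran as follows. In BMAd-Pnpla2+/+ mice 3 members, Cidea, Fitm2 and Bscl2, were higher in every CR than in every AL library, as were 12.3% of all genes. In BMAd-Pnpla2-/- mice 5 members, Plin1, Plin4, Cidea, Cidec and Fitm2, were so, as were 20.5% of all genes. In the other direction, 0 members and 1819 of 17494 genes were lower in every CR library in BMAd-Pnpla2+/+ mice. In BMAd-Pnpla2-/- mice 1 member, Plin3, was so, as were 3038 of 17494 genes. The calls in BMAd-Pnpla2-/- mice depended on which library was left out, while the estimates stayed above 0. Over the 14 fits that each left out 1 library, the log2 fold change was 1.89 to 2.78 for Plin1 and 1.44 to 2.40 for Plin4. It was 1.92 to 2.86 for Cidec and 1.25 to 1.62 for Fitm2. None of the 9 was called without AL replicate 1, without AL replicate 3 or without CR replicate 3, and only Fitm2 was called without CR replicate 2. Calls over all genes fell as well, with 0.727%, 0.949% and 0.674% called higher without the first 3 libraries and 2.63% without the last.

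**Figure D2:**
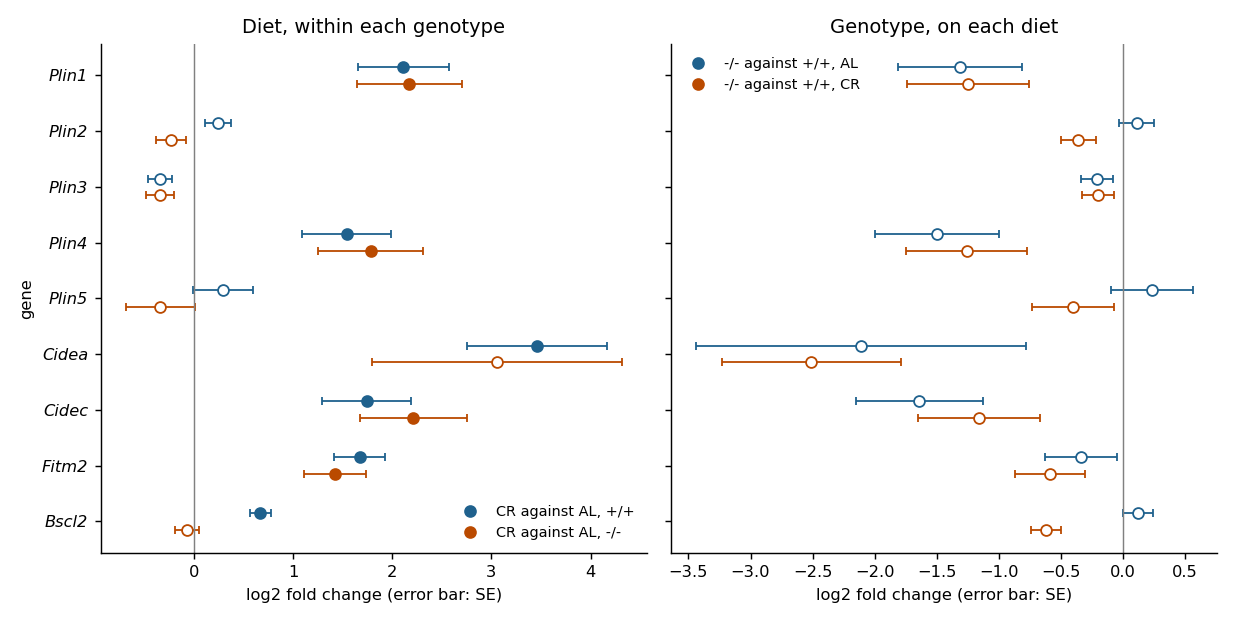
Log2 fold changes of the 9 genes with their standard errors from 1 fit of the 4 groups, for diet within each genotype (left) and genotype on each diet (right). Filled points are called (adjusted p under 0.05) and open points are not. Bscl2 lies at 0.67 for BMAd-Pnpla2+/+ and at -0.07 for BMAd-Pnpla2-/- mice on the left, and every point on the right is open.

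The second question was whether loss of Pnpla2 in marrow adipocytes changed these genes. On AL 0 of the 9 genes were called, and 0% of all genes were called by edgeR, with 694 genes at an unadjusted p under 0.05 and 19 genes called by DESeq2. Of the members, 3 were among those at an unadjusted p under 0.05, all lower in BMAd-Pnpla2-/- libraries. These were Plin1 at -1.31 ± 0.50, Plin4 at -1.50 ± 0.50 and Cidec at -1.64 ± 0.51 on the log2 scale, each with an edgeR adjusted p of 1. These sizes hang on single libraries. Without BMAd-Pnpla2+/+ AL replicate 1 they were -0.83, -0.98 and -1.03, and without BMAd-Pnpla2-/- AL replicate 2 they were -1.93, -2.12 and -2.29 for Plin1, Plin4 and Cidec. Plin4, and also Plin3 at -0.21 ± 0.13, were lower in every BMAd-Pnpla2-/- AL than in every BMAd-Pnpla2+/+ AL library, as were 3.14% of all genes, whereas the ranges of Plin1 and Cidec overlapped. Plin2, at 0.11 ± 0.14, Plin5, at 0.23 ± 0.33, and Bscl2, at 0.12 ± 0.12, had estimates near 0. Of the 11 adipocyte markers 0 were called and 5 had an unadjusted p under 0.05, with a median log2 fold change of -0.98.

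Under CR the estimate of every member was below 0 in BMAd-Pnpla2-/- mice, from -0.20 for Plin3 to -2.51 for Cidea, and the median was -0.62. The 11 adipocyte markers were below 0 as well, from -1.58 to -0.45 with a median of -0.90, and for 7 of them the unadjusted p was under 0.05. No member was called, and edgeR called 0.0171% of all genes, which is 3 genes, with 4052 genes at an unadjusted p under 0.05, among them 6 members. DESeq2 called 1598 genes. Cidea, at 169 reads in 4 BMAd-Pnpla2+/+ and 20 in 3 BMAd-Pnpla2-/- libraries, had a ratio of 0.171 (exact 95% interval 0.102 to 0.273, counting error only) and an edgeR adjusted p of 0.0851. Its BMAd-Pnpla2+/+ CR libraries are those that carried it past the filter on low counts. Bscl2 differed by -0.62 ± 0.12 and just missed the threshold (adjusted p = 0.0541). In DESeq2 Bscl2 was called at -0.65 (adjusted p = 0.00019). Plin1 at -1.25 ± 0.49 (adjusted p = 0.157), Plin4 at -1.26 ± 0.49 (adjusted p = 0.157) and Cidec at -1.16 ± 0.49 (adjusted p = 0.184) had larger estimates with wider errors. In all, 3 members, Plin2, Cidea and Bscl2, were lower in every BMAd-Pnpla2-/- CR than in every BMAd-Pnpla2+/+ CR library, as were 8.11% of all genes. Leaving out BMAd-Pnpla2+/+ CR replicate 4, the library low in adipocyte markers, gave 3 called members, Plin1, Cidea and Bscl2, all lower, while 5.45% of all genes were called lower. Leaving out BMAd-Pnpla2+/+ AL replicate 2 or CR replicate 3 gave 1, Bscl2, while 0.516% and 0.812% of all genes were called lower. Library type differs between these groups throughout.

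The third question was whether the diet change itself depended on genotype, tested as the interaction. None of the 9 members was called, and neither was any gene (0% of all genes), with 1824 genes at an unadjusted p under 0.05 and 60 called by DESeq2. Bscl2 had the smallest p-value of the members, with a difference of -0.74 ± 0.16 between the 2 diet changes (edgeR adjusted p = 0.337). It was called by DESeq2, at -0.77 with an adjusted p of 0.0115, and with the deposited counts that mix strand settings, at -0.74 with an adjusted p of 0.019. Over all alternatives other than leaving out a library its adjusted p ran from 0.0115 to 0.451. Plin2 followed at -0.47 ± 0.20 (edgeR adjusted p = 0.456). For the 4 genes called with CR in both genotypes the estimates were smaller than their errors. They were 0.06 ± 0.67 for Plin1, 0.24 ± 0.68 for Plin4, 0.47 ± 0.69 for Cidec and -0.24 ± 0.40 for Fitm2. The sign for Plin1, Plin4 and Cidec turned when BMAd-Pnpla2+/+ AL replicate 1 was left out. Leaving out each library in turn, 18 of 126 interaction estimates of the members changed sign, these among them.

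Because adipocyte RNA rose with CR, the members were also set against it, in the same fit with library sizes scaled to the 11 adipocyte markers. On this scale almost all genes of the marrow fall, so the members are read against that. The marker scale was taken as known, so its own error is not in the standard errors or p-values. In BMAd-Pnpla2+/+ mice 4 of the 9 fell relative to the markers, Plin2, Plin3, Plin5 and Bscl2, while 94.1% of all genes fell and the median gene was at -2.19 on the log2 scale. Cidea rose by 1.43 ± 0.64 (adjusted p = 0.0342), as did 0.183% of all genes. With most genes called on this scale, the adjustment changed its p-value little, from an unadjusted 0.0319. That call was lost without AL replicate 2, 3 or 4 or without CR replicate 1. Plin1 at -0.11 ± 0.36 (adjusted p = 0.772), Cidec at -0.39 ± 0.35 (adjusted p = 0.28), Fitm2 at -0.62 ± 0.33 (adjusted p = 0.0775) and Plin4 at -0.66 ± 0.36 (adjusted p = 0.079) were not called. Plin2 at -1.99 ± 0.40 and Plin5 at -1.89 ± 0.46 lay near the median gene, Plin3 at -2.58 ± 0.41 lay below it, and Bscl2 at -1.56 ± 0.39 lay between it and the adipocyte genes.

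In BMAd-Pnpla2-/- mice 5 of the 9 fell relative to the markers, Plin2, Plin3, Plin5, Fitm2 and Bscl2, while 93.3% of all genes fell, 0.0915% rose and the median gene was at -2.27. Bscl2 was at -2.40 ± 0.46 (adjusted p = 3.73e-05), beside the median gene, and Fitm2 at -0.89 ± 0.39 (adjusted p = 0.0312, unadjusted 0.0287). The Fitm2 call was lost without AL replicate 1 or 3 or without any of the 3 CR libraries of this genotype. Plin1 at 0.01 ± 0.41, Cidec at 0.05 ± 0.40 and Plin4 at -0.37 ± 0.42 were not called. The genotype comparisons on this scale called 0 members on AL (0.00572% of all genes, 1 gene), 0 under CR (0.0114%, 2 genes) and 0 in the interaction (0%). On AL, Bscl2 at 1.07 ± 0.41, Plin2 at 1.01 ± 0.41 and Plin5 at 1.19 ± 0.48 each had an adjusted p of 0.0823, beside a median gene at 0.94. Leaving out BMAd-Pnpla2-/- AL replicate 2 called these 3 and Plin3, all higher, while 73.4% of all genes were called higher. Leaving out BMAd-Pnpla2+/+ CR replicate 4 called the 3, while 66.8% of all genes were called higher. Under CR, leaving out that library called Plin3 higher, as were 64.4% of all genes, and Cidea lower, as were 0.0516%.

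**Figure D3:**
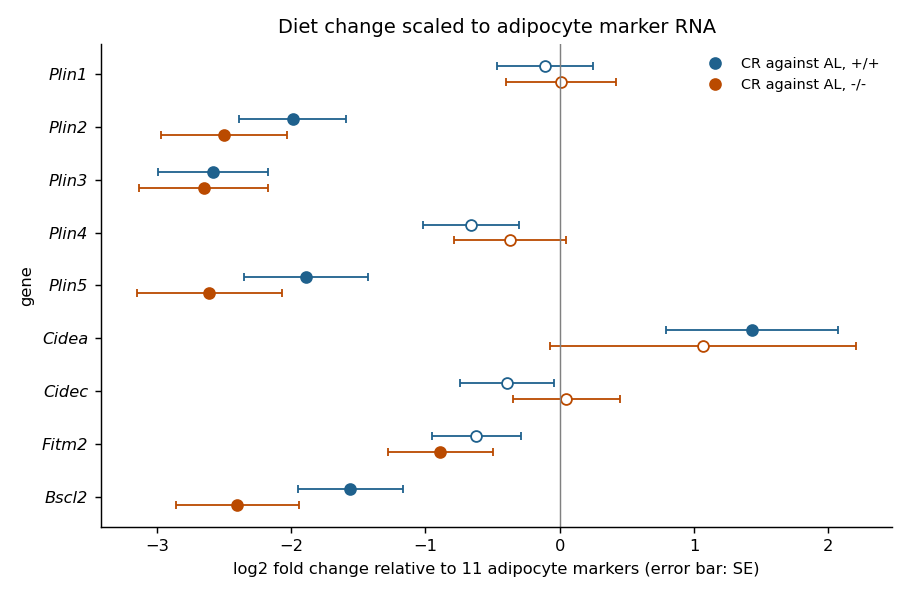
Log2 fold changes of CR against AL after library sizes were scaled to 11 adipocyte markers, with standard errors. Filled points are called (adjusted p under 0.05), open points are not. In BMAd-Pnpla2+/+ and BMAd-Pnpla2-/- mice Plin1 lies at -0.11 and 0.01, Cidec at -0.39 and 0.05, and Plin4 at -0.66 and -0.37. Plin2, Plin3 and Plin5 lie between -1.89 and -2.65, where the medians of all genes are -2.19 and -2.27.

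The same division was seen library by library. Over the 14 libraries the Pearson r of log2 CPM with the adipocyte marker mean was 0.98 for Plin1, 0.98 for Fitm2, 0.97 for Cidec, 0.95 for Plin4 and 0.94 for Cidea. It was 0.74 for Bscl2, 0.36 for Plin2, 0.07 for Plin5 and -0.43 for Plin3. With each group's mean removed, so that only differences between replicates remain, the values were 0.97 for Plin1, Plin4 and Cidec, 0.89 for Fitm2, 0.86 for Cidea, 0.77 for Bscl2, 0.63 for Plin2, 0.23 for Plin3 and 0.04 for Plin5. These are descriptions, since genes of 1 library share its cell make-up and its total. Difference from the marker mean also set the 2 kinds apart. Plin1 stayed between 1.64 and 2.49 above it in all 14 libraries on the log2 scale, whereas Plin2 went from 3.86 above it in a BMAd-Pnpla2-/- AL library to 0.07 above it in a BMAd-Pnpla2+/+ CR library.

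**Figure D4:**
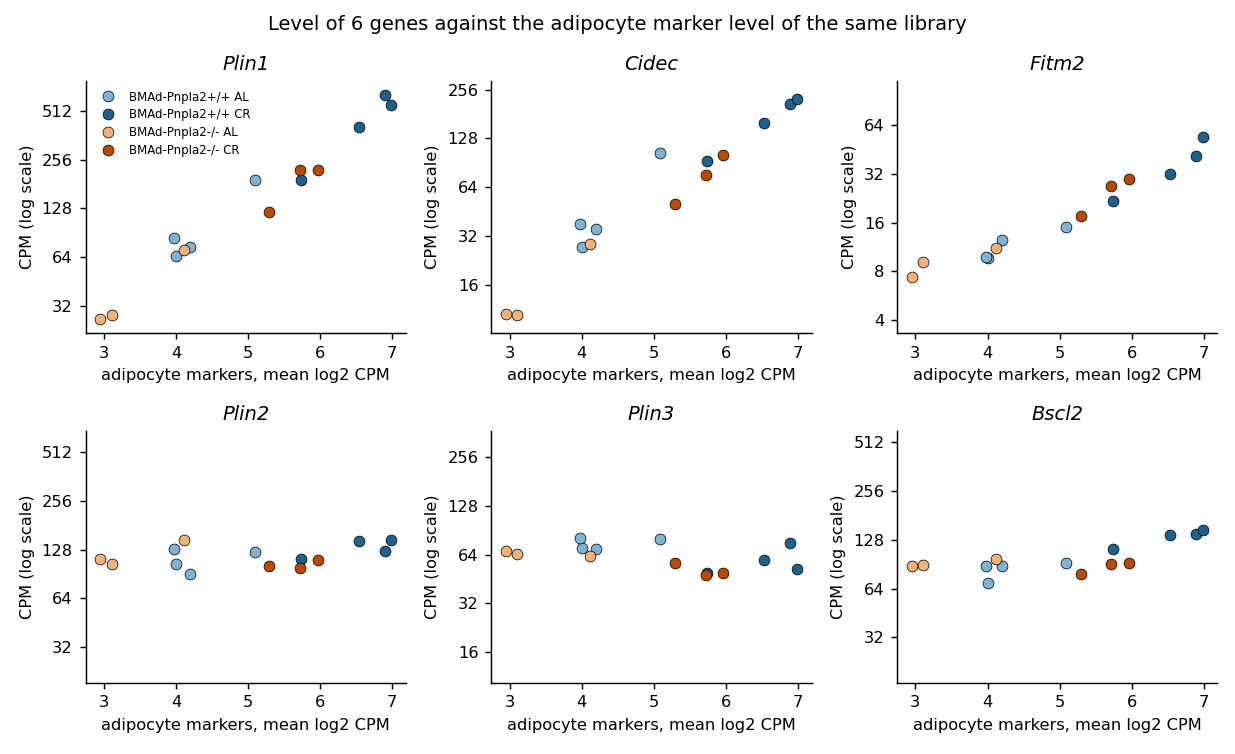
Level of 6 of the genes in each of the 14 libraries (CPM, log scale, each panel spanning the same fold range) against the mean log2 CPM of 11 adipocyte markers in the same library. Plin1, Cidec and Fitm2 climb with the markers (Pearson r 0.98, 0.97 and 0.98), and Plin2 and Plin3 do not (0.36 and -0.43). Bscl2 is higher in the 4 BMAd-Pnpla2+/+ CR libraries (112 to 147 CPM) than in all others.

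The make-up of perilipin RNA, taken per length, differed between the groups. Plin1 made up 29.5, 18, 19.6 and 20.9% of the 5 perilipins in BMAd-Pnpla2+/+ AL and 43.9, 49.9, 45.2 and 35.7% in CR libraries. Plin2 made up 25.2, 38.4, 39.6 and 34% on AL and 20.7, 12.8, 15.9 and 27.8% under CR, where AL replicate 1 and CR replicate 4 overlap. In BMAd-Pnpla2-/- AL libraries Plin2 was the main perilipin, at 51.4, 47.5 and 51.1%, and Plin1 was at 10.3, 17.4 and 9.17%. Under CR the same genotype had 31.7, 24.1 and 25.1% Plin2 and 28.9, 41 and 38.2% Plin1. The share of Plin2 was higher in every BMAd-Pnpla2-/- AL library than in every library of the 3 other groups. Plin5 never exceeded 2.21%. The total of the 5 was 96.7 ± 29.8 CPM per kilobase on AL and 214 ± 74 under CR (SD, n = 4) in BMAd-Pnpla2+/+ libraries, and 69.4 ± 15.9 on AL and 111 ± 17.6 under CR (n = 3) in BMAd-Pnpla2-/- libraries. Shares add to 100%, so that a rise in Plin1 lowers the others, and no test was run on them.

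**Figure D5:**
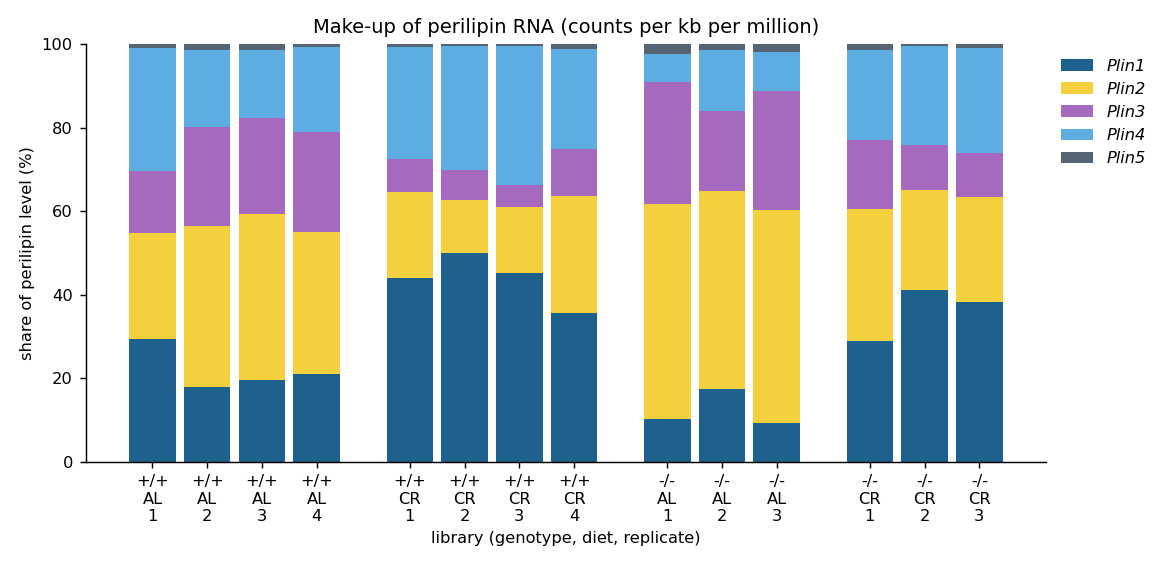
Share of each perilipin in the summed perilipin level of each library (%, from CPM per kilobase of merged exons), by genotype, diet and replicate. Plin1 takes 35.7 to 49.9% in BMAd-Pnpla2+/+ CR and 9.17 to 17.4% in BMAd-Pnpla2-/- AL libraries, where Plin2 takes 47.5 to 51.4%.

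Other genes of the lipid droplet gave a wider view of the pathway. Of 34 such genes in the matrix, Pnpla2 included, 33 were tested. With CR 8 rose and 2 fell in BMAd-Pnpla2+/+ mice, with a median log2 fold change of 0.16, beside 15% of all genes called higher and 10.9% called lower. In BMAd-Pnpla2-/- mice 5 rose and 0 fell, with a median of 0.17, beside 6.01% called higher and 5.57% called lower. The largest rises in BMAd-Pnpla2+/+ mice were those of Cav1, which encodes caveolin-1, at 2.32 ± 0.43 (27.4 to 137 CPM on average, adjusted p = 0.00398), Pnpla3, a relative of the deleted lipase, at 2.23 ± 0.51 (3.42 to 16.1 CPM, adjusted p = 0.0102), and Pnpla2 itself, at 1.94 ± 0.23 (219 to 839.9 CPM, adjusted p = 0.000616). In BMAd-Pnpla2-/- mice Cav1 at 2.36 ± 0.50 (adjusted p = 0.0143) and Pnpla3 at 2.21 ± 0.66 (adjusted p = 0.0469) rose as well, and Pnpla2 at 0.60 ± 0.26 was not called (adjusted p = 0.144). At the other end in BMAd-Pnpla2+/+ mice, Rnf213, a ubiquitin ligase found on droplets, fell by 0.45 on the log2 scale (adjusted p = 0.0487), Aup1, which links droplets to protein degradation, fell by 0.35 (adjusted p = 0.0219), and Pcyt1a, which makes phosphatidylcholine for the growing surface, was at -0.33 ± 0.14 (adjusted p = 0.0982). In the genotype comparisons 1 gene of the list was called, Pnpla2 under CR, and in the interaction 0. Pnpla3 was at -1.69 ± 0.55 in BMAd-Pnpla2-/- mice under CR with no overlap between the groups (adjusted p = 0.111).

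For each of 4 perilipins the genes most like it over the 14 libraries were listed by Pearson r of log2 CPM among genes that averaged 50 or more counts. For Plin1 they were Ccdc80, A530016L24Rik and Cidec, each at 0.99, while the median r of all 12916 genes was -0.07. For Plin3 they were Emilin1 at 0.96, Snd1 at 0.95 and Prex1 at 0.94. Plin2 was less closely matched, with Surf1 at 0.83 and Gab2 and Nr4a1 at 0.82, as was Plin5, with Usp8 at 0.84, Tnfrsf8 at 0.74 and Mmaa at 0.73. Among the members themselves Plin1, Plin4 and Cidec were tied at 0.98 to 0.99, Plin2 was nearest to Bscl2 at 0.66, and Plin3 was at -0.50 with Fitm2.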

How the data were processed

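RNA of 14 libraries, strand-specific per the study's methods, was sequenced on a DNBSEQ machine (pairs of 100 bases). The authors checked reads with FastQC 0.11.9, mapped reads with STAR (mm10) and deposited raw counts per gene, unstranded and for each strand, and a matrix of 23441 genes. In that matrix 11 libraries held reverse-strand counts and the 3 BMAd-Pnpla2-/- CR libraries unstranded counts, so the deposited unstranded counts of the matrix genes were used. Members and gene lists were chosen with earlier results of these data known. Counts were fitted in edgeR 4.0.16 (TMM, filterByExpr, robust quasi-likelihood test, all 4 groups in 1 model, two-sided, R 4.3.3), and DESeq2 1.42.0 served as an alternative. The standard error is the log2 fold change over the square root of F. CPM use TMM library sizes, and log2 CPM a prior count of 2. Lengths came from GENCODE M21. The study's test was DESeq2, with an adjusted p under 0.05 and a log2 fold change past 1 in either direction. Of the other lipid droplet genes, those named are the 3 largest and 3 smallest changes with CR in BMAd-Pnpla2+/+ mice among genes averaging 50 or more counts, and any called between genotypes. Of the lists, Klf1, Hsd17b13 and Snx14 were not analysed here. No 2 libraries were identical. Each library is a pool of 2 mice, so p-values measure the spread between pools. The edgeR and DESeq2 fits without marker scaling were tried on simulated data, and the fit scaled to adipocyte markers was not. Counting intervals and floors cover counting error only.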

Additional observations from a re-analysis of the deposited data

Results flagged for a closer look

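In 3 cases a value stood far from the rest of their group of 4, by the gap to the nearest library over the group's range (Dixon's test). All 3 are in BMAd-Pnpla2+/+ AL replicate 1. Plin1 was at 192 CPM there against 65.2 to 84.4 in the other 3 libraries, Plin4 at 238 CPM against 83.4 to 89.4, and Cidec at 104 CPM against 27.4 to 37.8. The gaps were 0.85, 0.96 and 0.86 of the range. In all, 22 groups of 4 were looked at, and chance flags about 1 in 20. The 3 flags are not independent, since with group means removed these genes correlated at 0.96 to 0.97 (Pearson r of log2 CPM). The adipocyte marker mean was highest in the same library (5.09), and its part in these values was not tested. Without that library the log2 fold changes of CR against AL in BMAd-Pnpla2+/+ mice were 2.59 for Plin1, 2.06 for Plin4 and 2.34 for Cidec, against 2.11, 1.54 and 1.74 with it.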

How the results depend on the processing

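Diet calls were 6 members in control and 4 in knockout mice, and leaving out each of the 14 libraries in turn gave 4 to 7 and 0 to 5. The genotype comparison under CR called 0 members, 2 with the deposited matrix counts, 1 with DESeq2 and 0 to 3 on leaving out a library. Calls over all genes rose as well, from 3 of 17494 to 2451 of 17509 with the deposited matrix counts and 1598 of 13085 with DESeq2. The interaction called 0, 1 with the deposited matrix counts, 1 with DESeq2 and 0 on leaving out any library. Over all genes it called 0 of 17494, 678 of 17509 with the deposited matrix counts and 60 of 7319 with DESeq2. On AL the count stayed at 0. Relative to adipocyte markers, leaving out a library gave 4 to 6 and 4 to 5 members with CR, 0 to 4 between genotypes on AL, 0 to 2 under CR and 0 in the interaction. The cause of these moves was not tested. Low counts limit Cidea and Plin5.

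Estimates that changed sign were uncalled. Bscl2 with CR in BMAd-Pnpla2-/- mice was 0.01 with total counts as library sizes. The Plin3 interaction was -0.02 with DESeq2 size factors, -0.02 in DESeq2 and -0.05 with no filter on low counts. Leaving out a library gave, on AL between genotypes, -0.05 to 0.20 for Plin2 and -0.01 to 0.36 for Plin5, and in the interaction -0.42 to 0.67 for Plin1, -0.08 to 0.15 for Plin3, -0.28 to 0.86 for Plin4, -2.06 to 2.34 for Cidea and -0.13 to 1.13 for Cidec. Relative to adipocyte markers it gave -0.12 to 0.11 for Plin1 and -0.05 to 0.18 for Cidec with CR in BMAd-Pnpla2-/- mice, -0.07 to 0.78 for Plin5 between genotypes under CR, and -0.01 to 0.22 for Plin1, -0.38 to 0.18 for Plin3 and -1.59 to 4.33 for Cidea in the interaction.

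Replicate numbers were not shown to pair the libraries, since deviations of 19 same-numbered pairs correlated at -0.37 to 0.33. With the replicate number as a block, 6, 4, 0, 0 and 0 members were called in the 5 comparisons, and 5, 5, 0, 0 and 0 relative to adipocyte markers.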
